A study of Mus musculus with 15 samples.

Results

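Gene expression was compared between 4 *EuMyc* lymphomas and 4 *Th-MYCN* neuroblastomas from mice with intact *Casp2*, which are 8 of the 15 mouse tumors of the study. The members were taken by their labels, as the lymphomas EuMyc614, EuMyc743b, EuMyc829 and EuMyc835 and the neuroblastomas MYCN175, MYCN235, MYCN332 and MYCN391. *EuMyc* mice carry *Myc* under the immunoglobulin heavy chain enhancer, which is active in B cells, on a C57BL/6 background, and their tumors were taken from cervical lymph nodes. *Th-MYCN* mice carry human *MYCN* under the tyrosine hydroxylase promoter, which is active in sympathetic neuroblasts, on an Sv129/C57BL6 background, and their tumors were paraspinal thoracic masses chosen for little or no vascularization. Both groups are labelled wild type for *Casp2*, and each tumor came from a different mouse. Tumor onset was at 13, 13, 13 and 19 weeks in the lymphomas and at 21, 13, 10 and 15 weeks in the neuroblastomas. All 4 *EuMyc* mice were male, while the *Th-MYCN* group held 2 females and 2 males, as listed in the summary of the sequenced mice. Oncogene, cell of origin, tissue site and strain all differ between the groups, and their parts in any difference cannot be told apart.

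Myc and N-Myc are related transcription factors that pair with Max, bind E-box DNA and drive ribosome production, nucleotide synthesis and cell division. A B cell is built by a cascade of factors, among them Ebf1, Pax5 and Ikaros, which switch on the signal chains and coreceptors of the B cell receptor. Neuroblastoma arises from the sympathoadrenal lineage of the neural crest, in which Hand2, Gata3 and Isl1 maintain catecholamine synthesis and a neuronal program. In bulk tumor RNA fewer cells of a type and less RNA per cell cannot be told apart.

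The 4 lymphomas had 9236641 to 13093667 reads assigned to genes and the 4 neuroblastomas 13862487 to 17638029. Levels are given as CPM (counts scaled to library size) after TMM scaling, and 3 reads in a tumor, the smallest level taken as detected, correspond to 0.236 to 0.319 CPM in the lymphomas and 0.173 to 0.218 CPM in the neuroblastomas. A gene was called when edgeR's quasi-likelihood test gave a false discovery rate (FDR) under 0.05 and the log2 fold change (log2FC, *EuMyc* over *Th-MYCN*) was over 1 in size. Of 14880 genes tested, 2723 (18.3%) were called higher in *EuMyc* and 4135 (27.8%) higher in *Th-MYCN*, together 46.1%, while 60.3% passed the FDR at any fold. The values of the groups did not overlap for 2390 (16.1% of all tested genes) and 3947 (26.5%) of these. Differences over 16-fold were found in 536 genes higher in *EuMyc* and 1813 higher in *Th-MYCN*, so that large differences were mostly on the neuroblastoma side. No read was counted in the other group for 35 genes called in *EuMyc* and for 288 called in *Th-MYCN*. The median log2FC over all tested genes was -0.04.

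Tumors lay far closer within than between types. The root mean square log2 difference over the 500 most different genes of a pair was 3.61 to 3.92 among lymphomas, 2.31 to 3.34 among neuroblastomas and 7.80 to 8.64 across types. When each library was thinned to 9236641 reads, genes with at least 5 reads numbered 13345, 13440, 12906 and 13482 in the lymphomas and 14504, 14461, 14528 and 14670 in the neuroblastomas. Every lymphoma lay below every neuroblastoma. The difference of the means was -1248 genes, with a 2-sided exact permutation p of 0.0286 (adjusted p = 0.0286 over 2 such tests), the smallest that 4 against 4 tumors allow. The 100 most counted genes took 14.1 to 16.8% of reads in the lymphomas and 12.8 to 13.3% in the neuroblastomas, a difference of 1.94 percentage points (exact permutation p = 0.0286, adjusted p = 0.0286).

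*Myc* and *Mycn* separated the types completely. *Myc* (chr15:61985391-61990374, GRCm38, plus strand) was at 1556, 1547, 1914 and 1238 CPM in EuMyc614, EuMyc743b, EuMyc829 and EuMyc835 and at 15.6, 5.37, 8.60 and 6.36 CPM in MYCN175, MYCN235, MYCN332 and MYCN391 (log2FC 7.44 ± 0.50 SE, FDR 6.49e-09). *Mycn* (chr12:12936093-12941914, GRCm38, minus strand) was at 343, 419, 430 and 408 CPM in the neuroblastomas and at 0.0855 to 0.743 CPM in the lymphomas (log2FC -10.01 ± 0.55, FDR 9.27e-10). Reads of the human *MYCN* transgene count here only where they align to the mouse gene. The counts of *Myc* do not tell reads of a transgene from those of the endogenous gene. The levels of *Myc* and *Mycn* are therefore not like measures. *Mycl1*, the third family member, was at 25.8 to 53.6 CPM in the neuroblastomas and at most 1.28 CPM in the lymphomas (log2FC -6.43). *Casp2* (chr6:42264985-42282508, GRCm38, plus strand), intact in both groups, was at 167, 125, 203 and 139 CPM in the lymphomas and at 125, 93.3, 76.0 and 106 CPM in the neuroblastomas. The groups overlap, and *Casp2* was not called (log2FC 0.66 ± 0.23, FDR 0.0204).

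**Figure D1:**
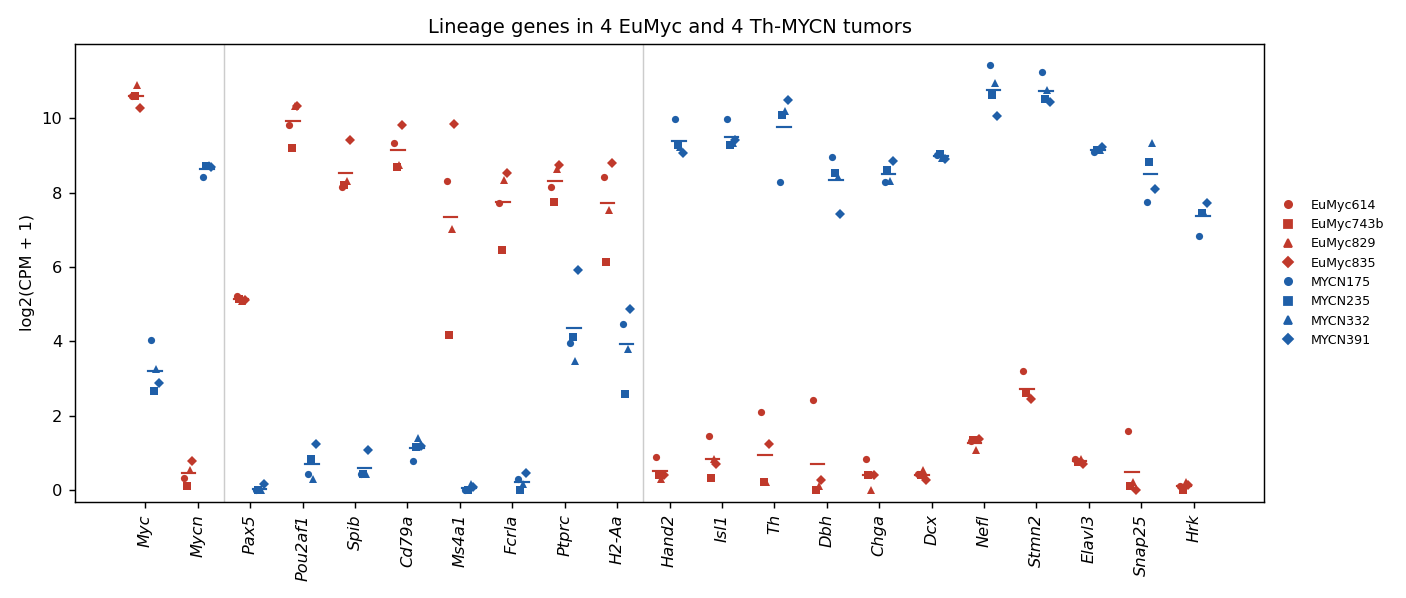
Expression of lineage genes, as log2(CPM + 1), in each of the 4 EuMyc tumors (red) and 4 Th-MYCN tumors (blue); symbols stand for single tumors and short lines for group means of the plotted values. The groups do not overlap for any gene shown, and Ms4a1 spreads most within the lymphomas, from 17.1 to 921 CPM.

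B-lineage transcription factors were high in every lymphoma, with 13 of 15 tested members called higher in *EuMyc*, 0 called in the other direction and a median log2FC of 4.15. *Pax5*, which commits cells to the B lineage, was at 36.1, 34.0, 33.2 and 33.3 CPM in the lymphomas and had 0 reads in 3 neuroblastomas and 0.124 CPM in MYCN391, a ratio of 1087 (95% counting interval 301 to 8980). It was the most even of these factors across the lymphomas. *Pou2af1*, the B cell coactivator of octamer-binding factors, was at 892, 581, 1282 and 1286 CPM against 0.231 to 1.36 CPM (log2FC 10.51 ± 0.68, FDR 4.88e-09). *Spib*, an Ets factor of B cells, was at 284, 291, 317 and 678 CPM against 0.346 to 1.11 CPM (log2FC 9.46). *Ikzf1* and *Ikzf3*, which encode Ikaros and Aiolos, had log2FC of 6.82 and 8.10, and *Irf4*, *Irf8* and *Myb* 7.35, 4.28 and 4.15. Smaller differences were found where the neuroblastomas also expressed the gene. *Ebf1* was at 30.2 to 48.0 CPM in the lymphomas and at 2.54 to 16.98 CPM in the neuroblastomas (log2FC 2.36 ± 0.44). *Tcf3*, which encodes E2A, was at 524 to 961 against 224 to 274 CPM (FDR 5.86e-06). The 2 members that were not called, *Pou2f2* and *Bcl11a*, had log2FC of 0.05 and -0.18, and both were at 32.6 CPM or more in all 8 tumors.

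Genes of the B cell receptor and the B cell surface gave 17 of 18 tested members higher in *EuMyc*, 0 higher in *Th-MYCN* and a median log2FC of 6.36. *Cd79a* and *Cd79b*, the signal chains of the receptor, were at 413 to 896 and 430 to 1091 CPM in the lymphomas and at no more than 1.67 and 4.69 CPM in the neuroblastomas. The kinases and adaptors downstream followed, with log2FC of 6.34 for *Btk*, 6.02 for *Blnk*, 5.07 for *Plcg2* and 3.95 for *Syk*. *Ms4a1*, which encodes CD20, had the largest difference of the list (log2FC 12.57 ± 1.59), but its level ran from 17.1 CPM in EuMyc743b to 921 CPM in EuMyc835. *Cd24a* was the most shared member, at 1017 to 1303 CPM in the lymphomas and 540 to 630 CPM in the neuroblastomas (log2FC 1.04, and 0.98, short of the fold limit, with DESeq2 or RLE size factors). *Cr2*, the complement receptor of mature B cells, was at or below 1.17 CPM in all 8 tumors and was not called (log2FC 1.89, FDR 0.204).

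Genes of precursor B cells were mostly higher in *EuMyc*, with 8 of 10 tested members, while 1 (*Kit*, log2FC -3.02) was higher in *Th-MYCN*. The median log2FC was 4.63. *Vpreb3*, a chaperone of immature B cells, was even across the lymphomas, at 237, 193, 278 and 382 CPM against 0.489 to 0.866 CPM (log2FC 8.64 ± 0.42). The surrogate light chain genes were not. *Igll1* was at 95.1 CPM in EuMyc743b and at 1.59 to 2.05 CPM in the other lymphomas, and its log2FC of 8.16 came down to 4.44 without EuMyc743b. Of germinal centre and plasma cell genes, 3 of 9 tested members were higher in *EuMyc*, 1 was higher in *Th-MYCN* and 5 were not called, with a median log2FC of 0.02. Over all tested genes 18.3% were called higher in *EuMyc* and 27.8% higher in *Th-MYCN*. *Bcl6*, the germinal centre regulator, and *Prdm1*, the plasma cell regulator, were at most 9.71 and 2.82 CPM in any of the 8 tumors and were not called (log2FC -0.58 and -0.04). *2010001M09Rik*, which encodes the immunoglobulin chaperone Mzb1, was at 118 to 484 CPM in the lymphomas (log2FC 9.18). *Sdc1*, a marker of plasma cells and of epithelium, was higher in *Th-MYCN*, at 47.6 to 57.7 CPM against 3.15 to 33.7 CPM (log2FC -2.17, and -3.70 without EuMyc743b).

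Genes of all blood cells and of antigen presentation completed the lymphoid profile. All 18 tested pan-haematopoietic genes were higher in *EuMyc*, with a median log2FC of 4.12. *Coro1a*, an actin regulator of leukocytes, was at 883 to 1729 CPM against 46.9 to 68.1 CPM, and *Ptprc*, which encodes CD45, at 215 to 427 against 10.0 to 60.0 CPM. *Itgb2* was the only member whose groups overlapped, since MYCN391 reached 57.1 CPM (log2FC 1.34, and 2.05 without MYCN391). All 10 MHC class II genes and all 10 MHC class I genes were higher in *EuMyc*, with median log2FC of 4.82 and 3.38. *Cd74*, the invariant chain, was at 1182, 157, 901 and 1962 CPM in the lymphomas and at 8.06 to 44.8 CPM in the neuroblastomas (log2FC 5.16 ± 0.71). *B2m*, the light chain of class I, was at 471 to 864 against 75.2 to 158 CPM (log2FC 2.60 ± 0.28), and *Psmb8*, an immunoproteasome subunit, had a log2FC of 4.93.

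Sympathoadrenal transcription factors were high in the neuroblastomas. Of 15 listed, all 14 that were tested were higher in *Th-MYCN*, with a median log2FC of -8.66 (-8.13 with genes of 0 reads at their bound). *Hand1*, the member not tested, reached at most 48.8 CPM in any tumor. *Hand2*, a helix-loop-helix factor of the sympathetic lineage, was at 1000, 619, 593 and 530 CPM against at most 0.875 CPM (log2FC -10.56 ± 0.41, FDR 3.82e-11), and *Isl1* at 1015, 620, 645 and 679 CPM against at most 1.75 CPM (log2FC -9.73). Both were highest in MYCN175. *Tfap2b* and *Sox11* had log2FC of -10.01 and -10.31. Some members were also expressed in lymphomas. *Sox4*, a factor of progenitors in many tissues, was at 14.4 to 119 CPM in the lymphomas and 205 to 449 CPM in the neuroblastomas (log2FC -2.20). *Insm1*, a zinc finger factor of neuroendocrine cells, reached 80.5 CPM in EuMyc743b and 20.2 CPM in EuMyc829 against 236 to 311 CPM in the neuroblastomas (log2FC -3.38, and -5.16 without EuMyc743b).

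Catecholamine genes gave 12 of 12 members higher in *Th-MYCN*, with a median log2FC of -6.74. *Th*, the rate-limiting enzyme, was at 314, 1075, 1175 and 1447 CPM in MYCN175, MYCN235, MYCN332 and MYCN391 and at 0.157 to 3.32 CPM in the lymphomas (log2FC -9.65 ± 0.85, FDR 1.32e-07). *Ddc*, the next enzyme, was instead highest in MYCN175, at 1593 CPM against 771 to 860 CPM in the other neuroblastomas. *Dbh*, which makes noradrenaline, was at 493, 370, 341 and 171 CPM, and *Pnmt*, which converts it to adrenaline, at 0.305, 3.99, 11.9 and 2.22 CPM. *Chga* and *Chgb*, proteins of the secretory granule, were at 311 to 456 and 262 to 579 CPM (log2FC -9.97 and -8.41). *Slc6a2*, the noradrenaline transporter, was at 44.5, 47.0, 28.9 and 8.09 CPM, and among the lymphomas only EuMyc614 had reads, at 6.82 CPM, which moved the log2FC from -11.65 without that tumor to -4.22.

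Receptors for neurotrophic factors were less uniform, with 8 of 11 tested members higher in *Th-MYCN*, 1 higher in *EuMyc* and a median log2FC of -5.27. *Alk*, the receptor kinase mutated in familial neuroblastoma, was at 59.4, 129, 140 and 112 CPM against at most 0.236 CPM (log2FC -9.85 ± 0.62), and *Ret* at 29.0 to 71.5 CPM against at most 1.54 CPM (log2FC -5.58). *Gfra3*, a coreceptor of Ret, was at 99.3 to 323 CPM (log2FC -10.62). *Gfra1* was the member called higher in *EuMyc*, at 38.2 CPM in EuMyc743b against 0.612 to 10.7 CPM in the other lymphomas and 0.124 to 4.43 CPM in the neuroblastomas, and it lost the call without EuMyc743b (log2FC 1.79, FDR 0.123).

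A broad neuronal program set the neuroblastomas apart. Higher in *Th-MYCN* were 18 of 19 cytoskeletal genes (median log2FC -7.70), 17 of 17 synaptic genes (-7.55), 16 of 18 axon guidance genes (-4.11), 16 of 18 ion channel genes (-6.35) and 13 of 13 transmitter receptor genes (-7.81). *Dcx*, a microtubule protein of young neurons, was at 515, 523, 490 and 475 CPM in the neuroblastomas and at 0.212 to 0.472 CPM in the lymphomas (log2FC -10.44 ± 0.30, FDR 2.75e-12). *Nefm*, a neurofilament subunit, was at 4792, 2369, 3068 and 1613 CPM against 20.5 to 25.4 CPM (log2FC -7.00), and *Stmn2*, a regulator of microtubules in growing axons, at 1376 to 2434 against 4.46 to 8.31 CPM (log2FC -8.25). *Prph*, which encodes peripherin, was the cytoskeletal gene not called, at 0.247 to 7.56 CPM in the neuroblastomas and at 2.97 CPM in EuMyc614 (log2FC -1.66, and -5.92 with FDR 0.0316 without EuMyc614). *Snap25*, part of the vesicle fusion machinery, was at 213, 454, 644 and 271 CPM against at most 2.01 CPM (log2FC -9.41). *Vamp2*, its partner on the vesicle, was the synaptic gene most shared, at 72.5 to 76.1 CPM in the lymphomas and 365 to 566 CPM in the neuroblastomas (log2FC -2.54 ± 0.16). *Grik2*, a kainate receptor subunit, was at 24.6 to 61.8 CPM with 0 reads in the lymphomas, at least 658-fold higher. The potassium channels *Kcnn4* and *Kcna3*, both known from lymphocytes, went the other way (log2FC 5.80 and 2.65). *Kcna3* was not called with sex as a covariate (log2FC 2.08, FDR 0.104), without EuMyc743b (FDR 0.0648) or without MYCN332 (FDR 0.0506).

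Splicing regulators of the Ptbp family differed in opposite directions. Of 14 neuronal RNA-binding and splicing genes, 13 were higher in *Th-MYCN* and 1, *Ptbp1*, was higher in *EuMyc*, with a median log2FC of -6.34. *Elavl3*, a neuronal RNA-binding protein, was at 546, 568, 563 and 597 CPM against 0.637 to 0.787 CPM (log2FC -9.59 ± 0.22, FDR 1.89e-13). *Ptbp1*, which represses neuronal exons, was at 739, 667, 697 and 650 CPM in the lymphomas and at 238, 211, 138 and 227 CPM in the neuroblastomas (log2FC 1.76 ± 0.16). *Ptbp2*, its neuronal paralog, was at 54.3 to 101 CPM in the lymphomas and at 332 to 419 CPM in the neuroblastomas (log2FC -2.42 ± 0.32). *Srrm4*, which promotes neuronal microexons, was at 70 to 92.3 CPM against at most 0.157 CPM, a ratio of 1251 (95% counting interval 428 to 6067).

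Imprinted genes were among the most counted genes of the neuroblastomas. *Meg3*, an imprinted long non-coding RNA, was at 3552, 4242, 4761 and 4156 CPM in the neuroblastomas and at 16.1, 6.59, 5.83 and 6.37 CPM in the lymphomas (log2FC -8.90 ± 0.44). Its neighbours *Rian* and *Dlk1*, the first a non-coding RNA and the second a Notch-related membrane protein, had log2FC of -8.90 and -6.93. *Gnas*, which encodes the stimulatory G protein, was the most counted gene among those called higher in *Th-MYCN*, at 5531 to 6310 CPM (log2FC -2.48). *Peg10*, a gene derived from a retrotransposon, was at 101, 4992, 918 and 5929 CPM in MYCN175, MYCN235, MYCN332 and MYCN391 against 0.637 to 1.49 CPM. *H19* and *Igf2*, a further imprinted pair, were not called (log2FC -3.17, FDR 0.060, and log2FC -0.34). *H19* was called with a likelihood ratio test (FDR 0.0255), DESeq2 (FDR 0.0329), the 8 tumors alone (FDR 0.0132) or without MYCN332 (FDR 0.0413). Without MYCN175 it was not (log2FC -1.99, FDR 0.236). Of 8 tested oncofetal genes, 3 were higher in *EuMyc* and 2 in *Th-MYCN*, against 18.3% and 27.8% of all tested genes. The median log2FC of the list was -1.32. *Lin28b*, which blocks let-7 processing, was at 40.2 to 67.9 CPM in the neuroblastomas and at 39.4 CPM in EuMyc829 alone among the lymphomas (log2FC -2.30, FDR 0.121, and -8.53, FDR 2.89e-06, without EuMyc829).

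Among genes with a group mean of at least 50 CPM and no overlap between groups, the 10 called with the largest differences in *Th-MYCN* began with 6 that had 0 reads in the lymphomas. The non-coding *A930011O12Rik* (chr14:64587331-64593961, GRCm38) was at 86.5 to 124 CPM, at least 1671-fold higher. *Pou3f2* and *Pou3f3*, POU factors of neural progenitors, were at least 1158-fold and 960-fold higher. *Gpr179*, *4930412O13Rik* and *Fbll1* followed with at least 1062-fold, 1021-fold and 819-fold. *B3gat1*, which makes the neural HNK-1 epitope, was at 89.1 to 141 CPM with 1 read in the lymphomas (ratio 5690, 95% counting interval 1021 to 224729), and *Peg10*, *Stk32b* and *Arhgap36* completed the 10. The matching genes in *EuMyc* included *Ms4a1*, *Smr3a*, *Pou2af1*, *Fcrla*, *Siglecg*, *Blk*, *Foxf2*, *Ly6d* and *Spib*. Of these, all but *Smr3a* and *Foxf2* are known from B cells. *Foxf2*, a forkhead factor better known from mesenchyme, was at 177, 9.75, 62.7 and 95.4 CPM in the lymphomas and at most 0.173 CPM in the neuroblastomas (log2FC 9.69 ± 0.99). *Smr3a*, a secreted protein of salivary glands, is taken up with the other cell types. By level, the 5 most counted genes called higher in *EuMyc* were *Rpl4*, *Ncl*, *Rps3*, *Gnb2l1* and *Rpl8*, all of ribosomes or their assembly, with log2FC of 1.11 to 1.53. *Gnb2l1* fell short of the fold limit without EuMyc614 (log2FC 0.97).

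Hox genes, which record position along the body axis, gave 8 of 10 tested members higher in *Th-MYCN*, 1 higher in *EuMyc* and a median log2FC of -6.16. The other 7 of the 17 listed genes were too low to be tested. *Hoxc4* was at 64.8 to 85.0 CPM in all 4 neuroblastomas (log2FC -7.73). *Hoxc9* was at 19.8, 10.7, 0.519 and 4.57 CPM in MYCN175, MYCN235, MYCN332 and MYCN391 with 0 reads in the lymphomas, at least 134-fold higher. *Hoxb4*, known from haematopoietic progenitors, was the gene higher in *EuMyc*, at 1.89 to 7.00 against 0.556 to 0.750 CPM (log2FC 2.91).

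**Figure D2:**
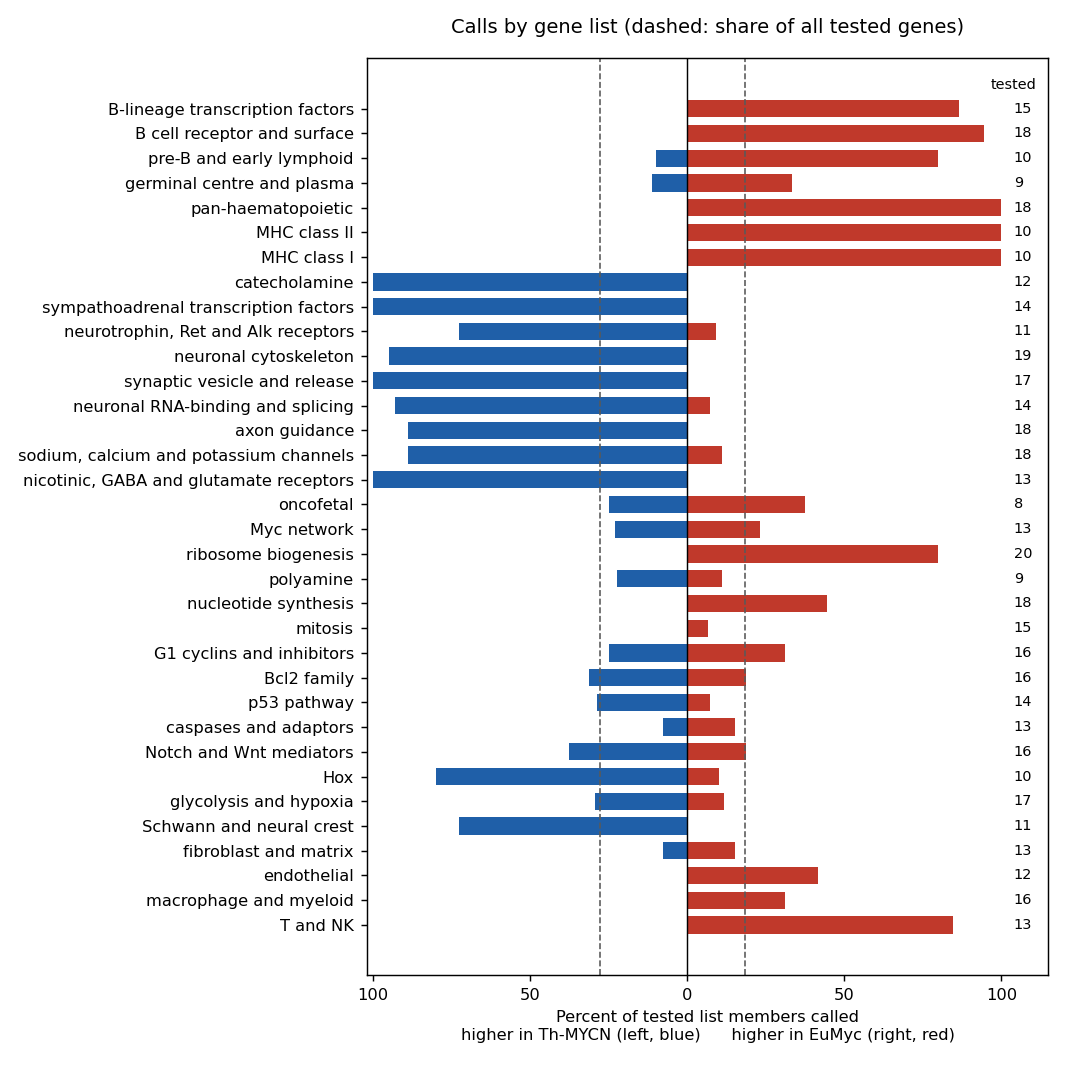
Share of the tested members of each gene list called higher in Th-MYCN (blue, to the left) or in EuMyc (red, to the right), in percent, with the number tested at the right edge; dashed lines mark the shares over all tested genes, 27.8% and 18.3%. B-lineage, blood and MHC lists lie wholly or almost wholly to the right and neural lists to the left, while mitosis, caspase, p53 and Bcl2 lists do not exceed the background by much in either direction.

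Of the growth lists, ribosome biogenesis had the highest share of called members, with 16 of 20 tested members higher in *EuMyc*, 0 higher in *Th-MYCN* and a median log2FC of 1.40, against 18.3% and -0.04 over all tested genes. *Ncl*, which encodes nucleolin, was at 3528, 3918, 3834 and 3060 CPM in the lymphomas and at 1648, 1381, 1171 and 1312 CPM in the neuroblastomas (log2FC 1.38 ± 0.15). *Npm1*, which encodes nucleophosmin, had a log2FC of 1.64, *Ppan*, a factor of large subunit assembly, 1.96, and *Dkc1*, the pseudouridine synthase of small nucleolar particles, 2.29. Of the 4 not called, *Nop56* and *Ubtf* had FDR of 4.55e-05 and 1.13e-05 but fell short of the fold limit (log2FC 0.89 and 0.96). These differences were far smaller than those of the lineage genes. Both groups carry a Myc family oncogene, and no untransformed tissue is part of the series.

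Other lists tied to Myc proteins had smaller shares of called members than ribosome biogenesis. Over all tested genes 18.3% were called higher in *EuMyc* and 27.8% higher in *Th-MYCN*. The polyamine and Myc network lists lay near or below these shares. Nucleotide synthesis gave 8 of 18 members higher in *EuMyc* and 0 in *Th-MYCN*, with a median log2FC of 0.87. The purine enzymes *Gart* and *Atic* had log2FC of 1.57 and 1.46 and the pyrimidine enzyme *Cad* 1.07 (not called with sex as a covariate, 0.85, or without EuMyc743b, 0.98, or MYCN175, 0.95), whereas *Rrm2* and *Tyms*, which supply DNA precursors, overlapped between groups (log2FC -0.27 and -0.21). Polyamine genes gave 1 of 9 higher in *EuMyc* and 2 higher in *Th-MYCN*, with a median log2FC of 0.43. *Odc1*, the rate-limiting enzyme, was at 181 to 246 against 80.4 to 89.9 CPM (log2FC 1.34), while *Oaz2* and *Smox*, an antizyme and an oxidase that limit polyamines, were higher in *Th-MYCN* (log2FC -2.03 and -1.44). Partners and antagonists within the Myc network gave 3 of 13 members in each direction, *Myc*, *Mxd4* and *Mlxip* in *EuMyc* and *Mycn*, *Mycl1* and *Mxd3* in *Th-MYCN*, with a median log2FC of -0.51. *Mxd4* was not called with sex as a covariate (log2FC 0.97, FDR 0.0555) or without EuMyc829 (log2FC 0.78, FDR 0.0606). *Max*, the shared partner, was at 164 to 247 against 90.03 to 118 CPM (log2FC 0.91, FDR 0.0001), short of the fold limit.

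Few mitotic genes were called, while the cyclins D1 and D3 differed in opposite directions. Of 15 mitotic genes 1, *Bub1b*, was called higher in *EuMyc* (log2FC 1.21, and 0.90 and not called with sex as a covariate) and 0 in *Th-MYCN*, and the median log2FC was 0.35. Without EuMyc829 3 were called. *Mki67* was at 1182 to 1437 CPM in the lymphomas and 625 to 832 CPM in the neuroblastomas (log2FC 0.92, FDR 0.00371), and *Top2a* at 946 to 1284 and 631 to 1122 CPM (log2FC 0.38, FDR 0.161). The G1 list gave 5 of 16 in *EuMyc* and 4 in *Th-MYCN*, against 18.3% and 27.8% of all tested genes, with a median log2FC of 0.10. *Ccnd1* was at 1536 to 2224 CPM in the neuroblastomas and at 242 to 369 CPM in the lymphomas (log2FC -2.59 ± 0.19), and *Ccnd3* at 19.3 to 38.7 against 100 to 302 CPM (log2FC 2.45 ± 0.39). *Ccnd2*, the remaining D-type cyclin, overlapped between groups (log2FC -0.29, FDR 0.715). *Cdk6* and *Cdk2* were higher in *EuMyc* (log2FC 4.82 and 2.56), and *Cdk4* was not called (log2FC -0.31). *Cdkn1b*, which encodes the inhibitor p27, was at 83.2 to 90.6 CPM in the lymphomas and 187 to 209 CPM in the neuroblastomas (log2FC -1.21 ± 0.13).

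Cell death lists were called at shares mostly near or below the 18.3% and 27.8% of all tested genes. The Bcl2 family gave 3 of 16 tested members in *EuMyc* and 5 in *Th-MYCN*, with a median log2FC of 0.04, and without EuMyc743b 5 were called in *EuMyc*. *Hrk*, a BH3-only killer of neurons deprived of growth factor, was at 114, 174, 173 and 209 CPM in the neuroblastomas and at most 0.157 CPM in the lymphomas (log2FC -10.73 ± 0.57). *Bak1*, an executioner at the mitochondrial membrane, was at 126, 127, 124 and 122 CPM in the lymphomas and at 16.4 to 22.4 CPM in the neuroblastomas (log2FC 2.65 ± 0.19). The survival genes *Bcl2l1* and *Bcl2l2* were higher in *Th-MYCN* (log2FC -1.76 and -2.75), and *Bax* was not called (log2FC 0.23). *Bcl2* itself was at 4.96 to 67.0 CPM in the lymphomas, around the 12.3 to 17.5 CPM of the neuroblastomas (log2FC 0.89, FDR 0.15). Without EuMyc743b it was called higher in *EuMyc* (log2FC 1.25, FDR 0.0145). Caspases and adaptors gave 2 of 13 in *EuMyc* and 1 in *Th-MYCN*, with a median log2FC of 0.26. *Casp8*, the initiator of death receptor signalling, was at 105, 82.8, 114 and 104.5 CPM against 6.05, 2.61, 4.33 and 6.30 CPM (log2FC 4.39 ± 0.30), and its regulator *Cflar* had a log2FC of 1.95. The adaptors of caspase-2 itself, *Lrdd* and *Cradd*, which encode PIDD1 and RAIDD, did not differ past the threshold (log2FC 0.26 ± 0.20 and -0.04 ± 0.27). The p53 list gave 1 of 14 in *EuMyc* and 4 in *Th-MYCN*, with a median log2FC of 0.17. *Trp53inp1* was the member higher in *EuMyc* (log2FC 3.66), and *Zmat3*, *Plk2*, *Phlda3* and *Eda2r* were the members higher in *Th-MYCN* (log2FC -3.44, -2.53, -1.78 and -4.33).

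Glycolytic enzymes did not move together. The list gave 2 of 17 tested members in *EuMyc*, *Ldha* and *Hk2*, and 5 in *Th-MYCN*, against 18.3% and 27.8% of all tested genes, with a median log2FC of -0.13. *Ldha* was at 1209 to 1973 CPM in the lymphomas and 303 to 573 CPM in the neuroblastomas (log2FC 1.74 ± 0.24), and *Ldhb* at 0.551 to 3.68 against 20.4 to 88.9 CPM (log2FC -4.64). *Hk2* and *Hk1*, the inducible and the widespread hexokinase, showed the same exchange (log2FC 1.70 and -2.63), while *Pkm2* was not called (log2FC -0.01). Notch and Wnt mediators gave 3 of 16 in *EuMyc*, the receptors *Notch1* and *Notch2* and the target *Hes1* (log2FC 2.10, 2.56 and 3.71), and 6 in *Th-MYCN*, among them the ligands *Jag2*, *Jag1* and *Dll1* (log2FC -4.05, -1.78 and -2.62). The median log2FC of that list was -0.89.

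**Figure D3:**
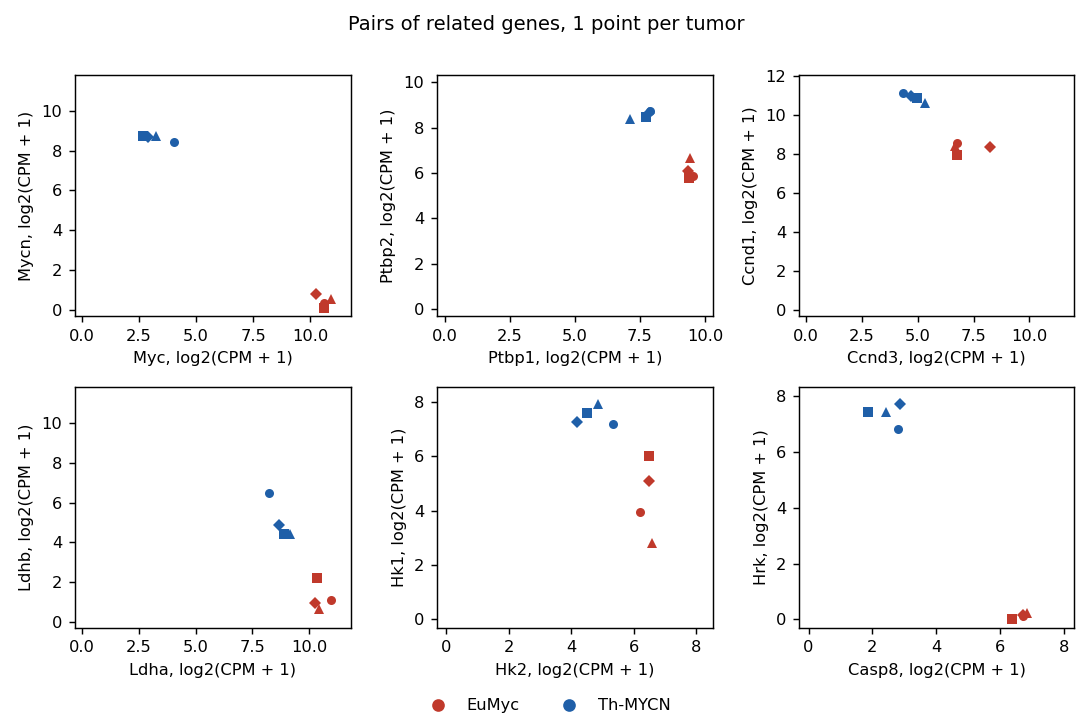
Levels of 6 pairs of genes, as log2(CPM + 1) on both axes, with 1 point per tumor, EuMyc in red and Th-MYCN in blue. In each pair the lymphomas lie to the lower right and the neuroblastomas to the upper left without overlap on either axis.

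Markers of other cell types were present in both groups. Macrophage and myeloid markers summed to 730 to 1881 CPM in the lymphomas and 754 to 1110 CPM in the neuroblastomas, and 5 of 16 members were higher in *EuMyc* and 0 in *Th-MYCN* (median log2FC 0.84). Over all tested genes 18.3% and 27.8% were called in these directions. *Lyz2*, *C1qa* and *Csf1r* overlapped between groups (log2FC -0.15, -0.12 and -0.07), whereas the neutrophil genes *S100a8* and *S100a9* were at 4.57 to 153 and 6.93 to 221 CPM in the lymphomas and at most 0.185 CPM in the neuroblastomas. T and NK cell markers summed to 105 to 225 against 10.5 to 16.3 CPM, with 11 of 13 tested members higher in *EuMyc* (median log2FC 3.56), but the defining *Cd3d* and *Cd3e* were at most 2.05 and 2.34 CPM in any lymphoma. When the 8 tumors were fitted alone 7 were called, and without EuMyc743b and MYCN175 together 5. Endothelial markers gave 5 of 12 in *EuMyc* (median log2FC 0.97) and summed to 218 to 421 CPM in the lymphomas and 94.4 to 157 CPM in the neuroblastomas. The neuroblastomas were chosen for little or no vascularization, and the part of that choice in the difference was not tested. The 5 calls came down to 1 without EuMyc743b or MYCN391 and to 2 without MYCN235 or MYCN332. Fibroblast markers gave 2 of 13 in *EuMyc* and 1 in *Th-MYCN* (median log2FC 0.38), below the shares over all tested genes. Without EuMyc829 or EuMyc835, 4 were called in *EuMyc*. Schwann and neural crest markers gave 8 of 11 in *Th-MYCN* (median log2FC -2.07), with *Sox10* at 8.42 to 22.7 CPM against at most 1.70 CPM. The part of these cells in the calls of the lists they share genes with was not tested. The sum of the B cell receptor list reached 614 to 800 CPM in the neuroblastomas, most of it *Cd24a*, and that of the catecholamine list 31.9 to 79.1 CPM in the lymphomas.

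Salivary gland genes stood out in 3 of the 4 lymphomas. After *Smr3a* had been seen among the largest differences, 17 genes of salivary gland secretion and epithelium were listed. They summed to 32.5, 2754, 2273 and 8410 CPM in EuMyc614, EuMyc743b, EuMyc829 and EuMyc835 and to 88.8 to 99.6 CPM in the neuroblastomas. *Smr3a* was at 0.525, 501, 307 and 1136 CPM in the lymphomas, *Bpifa2*, the parotid secretory protein, at 0.962, 1307, 1071 and 4385 CPM, and *Amy1*, salivary amylase, at 3.24, 598, 531 and 1532 CPM. Each was lowest in EuMyc614 and highest in EuMyc835. In EuMyc614, which lacked this signal, *Cd79b* was at 996 CPM and *Pou2af1* at 892 CPM. Adipocyte markers, listed in the same way, summed to 483, 391.7, 109 and 81.9 CPM in the lymphomas and 256, 97.1, 54.2 and 414 CPM in the neuroblastomas, and skeletal muscle markers to 30.5 to 64.4 CPM in the lymphomas and 320, 20.7, 17.2 and 19.8 CPM in MYCN175, MYCN235, MYCN332 and MYCN391. All 3 lists, *Bpifa2* and *Amy1* were chosen after values were seen. Their part in other calls was not tested.

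The lymphomas differed from each other more than the neuroblastomas did. The median SD of log2(CPM + 1) over tested genes was 0.324 in *EuMyc* and 0.226 in *Th-MYCN*, and 66.8% of genes had the larger SD in *EuMyc*. A range over 16-fold on that scale was found in 149 genes among the lymphomas and 57 among the neuroblastomas. The largest SDs in the lymphomas included salivary gland genes such as *Bpifa2* (5.01), *Smr3a* (4.33) and *Amy1* (3.83). Those in the neuroblastomas, which came from both sexes, included the sex-linked *Xist* (5.63) and *Kdm5d* (3.19). The lymphomas also had fewer reads, and libraries were not thinned to a common depth here. The parts of tissue, sex and depth in this difference were not tested. EuMyc743b was highest for some genes of precursor B cells and not for others. *Igll1*, *Vpreb1* and *Il7r*, which encode the surrogate light chain and the interleukin 7 receptor, were at 95.1, 60.1 and 173 CPM there and at most 2.05, 1.06 and 24.6 CPM in the other lymphomas. *Vpreb3* was instead lowest in EuMyc743b, at 193 CPM. In the same tumor *Ms4a1* and *Blk* were lowest, at 17.1 and 5.47 CPM, and *H2-Aa* and its activator *Ciita* were at 69.5 and 6.84 CPM against at least 182 and 38.4 CPM in the others. *Erg*, an Ets factor of early progenitors, was at 33.8 CPM against 1.57 to 2.36 CPM, and its call between types was lost without EuMyc743b (log2FC 3.25, and 0.97 with FDR 0.183 without it). The neutrophil gene *S100a9* and the early myeloid gene *Mpo* were also highest in this tumor, at 221 and 29.9 CPM.

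EuMyc835, the lymphoma of latest onset, had the highest *Ms4a1* (921 CPM), *Ly6d* (408 CPM against 5.13 to 62.6 CPM), *Spib* (678 CPM) and *Ccnd3* (302 CPM). *Rag1*, which recombines immunoglobulin genes, was at 25.5, 2.31, 68.1 and 0 CPM in EuMyc614, EuMyc743b, EuMyc829 and EuMyc835, and was not called between types (log2FC 2.56, FDR 0.0601). *Rag2*, its partner, was likewise highest in EuMyc829, at 11.02 CPM. *Cdkn2a*, which encodes the tumor suppressors p16Ink4a and p19Arf, fell into separate levels, at 8.05 and 6.24 CPM in EuMyc614 and EuMyc743b and at 389 and 282 CPM in EuMyc829 and EuMyc835. All neuroblastomas were below these, at 0.366 to 2.90 CPM (log2FC 7.16 ± 1.61, FDR 0.00129). *Trp53* was at 74.5 CPM in EuMyc829, below the 110 to 169 CPM of the neuroblastomas, and at 265 to 286 CPM in the other lymphomas, above them (log2FC 0.73, FDR 0.0999, not called). Without EuMyc829 it was called higher in *EuMyc* (log2FC 1.03, FDR 0.00635). EuMyc614 had the highest *Rps3*, at 4974 CPM against 2616 to 2807 CPM, and low but repeated reads of sympathetic and synaptic genes, with *Dbh* at 4.37 CPM, *Slc6a2* at 6.82 CPM and *Snap25* at 2.01 CPM, where the other lymphomas had at most 0.212, 0 and 0.157 CPM.

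**Figure D4:**
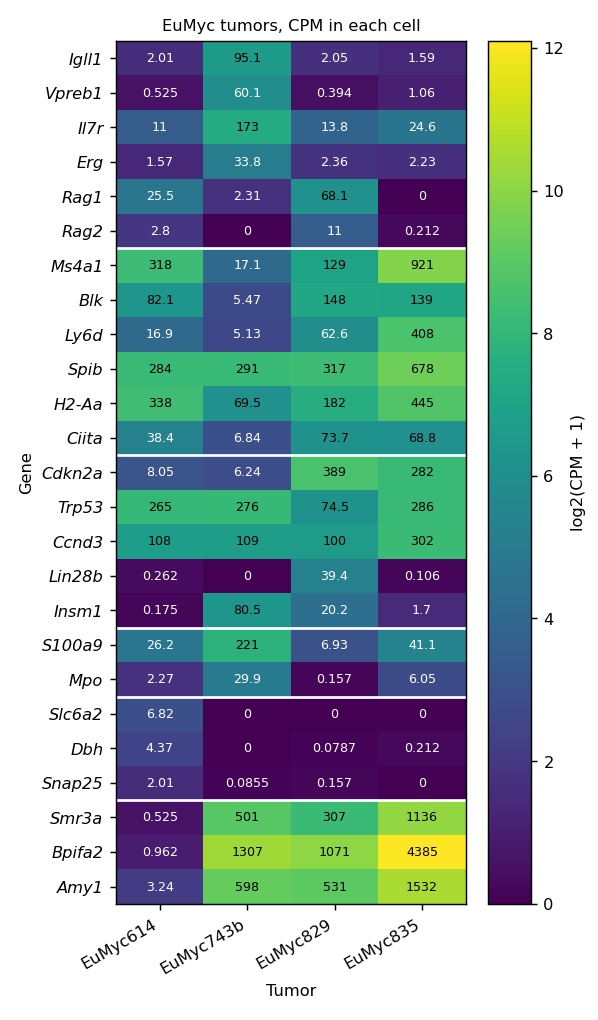
Levels of selected genes in the 4 EuMyc tumors, as log2(CPM + 1) in color with the CPM written in each cell; white lines separate precursor genes, mature B cell and MHC class II genes, cell cycle and further genes, myeloid genes, sympathetic and synaptic genes, and salivary gland genes. EuMyc743b is highest for the precursor genes Igll1 and Vpreb1 and EuMyc614 lowest for the salivary gland genes.

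Among the neuroblastomas, MYCN175, the tumor of latest onset, lay farthest from the others, at distances of 3.28 to 3.34 against 2.31 to 2.89 among the other 3. *Ntrk3*, a neurotrophin receptor, was at 62.9 CPM in MYCN175 and at most 11.3 CPM in the others. *Phox2a* was at 422 CPM against 113 to 154 CPM, *Gap43*, a growth cone protein, at 1868 against 494 to 691 CPM, and *Gata3* at 215 against 116 to 124 CPM. The transcription factor *Hmx1* was at 105 CPM against at most 1.36 CPM, and *Nhlh2* at 502 CPM against 2.31 to 127 CPM. The vesicular acetylcholine transporter *Slc18a3* was at 38.1 CPM against 0.436 to 1.17 CPM. In turn *Th*, *Dlk1* and *Peg10* were lowest in MYCN175, and *Miat*, a long non-coding RNA, was at 0.794 CPM there against 172 to 415 CPM. *Hmx1*, *Nhlh2*, *Slc18a3* and *Miat* were picked after their values were seen. These differences rest on 1 tumor, in which the skeletal muscle markers *Acta1* and *Myh1* were also highest, at 86.2 and 37.4 CPM.

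MYCN391 was set apart by blood cell genes. *Ptprc* was at 60.0 CPM against 10.0 to 16.3 CPM in the other neuroblastomas, the B cell coreceptor *Cd72* at 69.97 against 6.41 to 13.6 CPM and *Laptm5* at 102 against 52.6 to 56.9 CPM. *Cd79b* was also highest there, but at 4.69 CPM. MYCN332 had the highest Schwann cell markers, with *Sox10* at 22.7 CPM against 8.42 to 8.86 CPM, and the lowest *Chgb*, at 262 CPM against 545 to 579 CPM. Other genes were even, with *Dcx* within 475 to 523 CPM and *Elavl3* within 546 to 597 CPM.

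**Figure D5:**
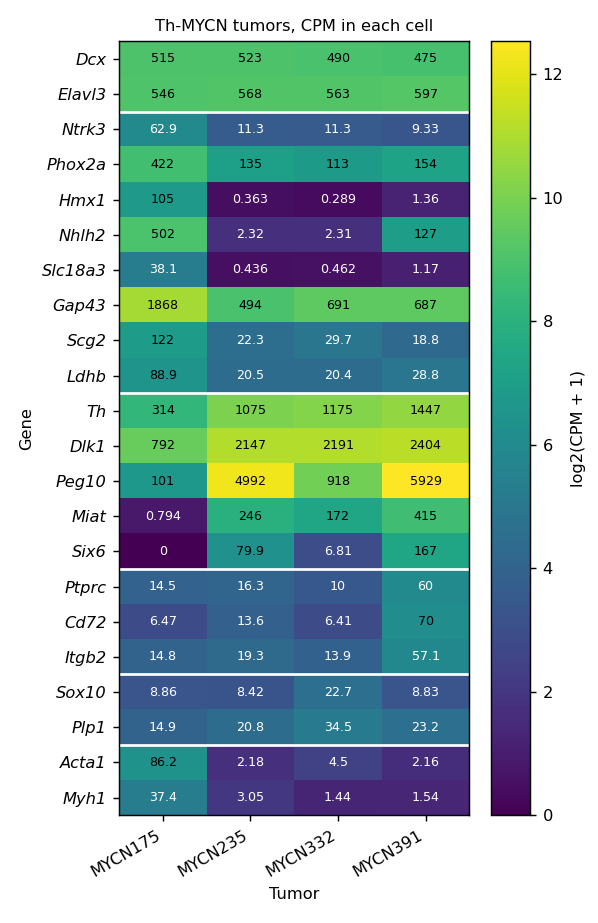
Levels of selected genes in the 4 Th-MYCN tumors, as log2(CPM + 1) in color with the CPM written in each cell; white lines separate core lineage genes, genes high in MYCN175, genes low in MYCN175, blood cell genes, Schwann cell genes and skeletal muscle genes. Dcx and Elavl3 are even across tumors, while Ntrk3 runs from 9.33 to 62.9 CPM.

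The contrast was repeated in the 7 tumors without *Casp2*, 3 *EuMyc/Casp2-/-* and 4 *Th-MYCN/Casp2-/-*, which share no tumor with the groups above but were part of the same fit. There 2937 genes (19.7%) were called higher in *EuMyc/Casp2-/-* and 3964 (26.6%) higher in *Th-MYCN/Casp2-/-*. Of the genes called higher in *EuMyc*, 2258 were called in the same direction, 82.9% of the first list and 76.9% of the second. In the other direction 3519 were shared, 85.1% and 88.8%, and 8 genes were called in opposite directions. The lists gave 17 of 18 B cell receptor and surface genes, 12 of 12 catecholamine genes, 17 of 17 synaptic genes and 18 of 20 ribosome biogenesis genes called in the same directions as before. Membership was not identical, since *Cd24a* was no longer called (log2FC 0.54) and *Cr2* was (log2FC 5.26). Other counts moved, with endothelial genes higher in the lymphomas going from 5 to 10, germinal centre and plasma cell genes from 3 to 6, axon guidance genes higher in the neuroblastomas from 16 to 13 and neurotrophic receptors from 8 to 6. Of the genes named here, *Amy1* was the only one with an interaction of tumor type and *Casp2* genotype at an FDR under 0.05. Its log2FC was 4.57 with *Casp2* and -4.68 without (interaction FDR 0.0460). An FDR over that limit does not show that a type difference was equal in both genotypes. *Amy1* is one of the salivary gland genes and ran from 3.24 CPM in EuMyc614 to 1532 CPM in EuMyc835. The part of the salivary gland signal in its interaction was not tested.

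The promoters of genes that moved together were searched for short motifs on both strands of a window from 250 bases before to 50 bases after each start site (RefSeq, GRCm38.p6). Matches to an annotated window were found for 11517 of the tested genes. CACGTG, the E-box bound by Myc with Max, occurred in 12.0% of genes called higher in *EuMyc*, 9.64% of those higher in *Th-MYCN* and 11.3% of all tested genes. It was in 11.9% of genes not called and in 7.15% of all 32851 windows. A gene counted when any of its windows matched, while the share of windows counts each window alone and includes genes not tested. Shares of genes and of windows are therefore not like measures. CACGTG was in 3 of 15 ribosome biogenesis and 4 of 16 nucleotide synthesis promoters. CAGCTG, an E-box of neural and lymphoid helix-loop-helix factors, occurred in 18.3%, 22.7% and 18.6% of genes and 16.3% of all windows, and in 8 of 12 neuronal RNA-binding and splicing promoters and 5 of 10 sympathoadrenal factor promoters. Among the 8 was that of *Ptbp1*, which was higher in *EuMyc*. Other neural lists held it in 1 of 13 axon guidance, 1 of 10 transmitter receptor, 2 of 11 cytoskeletal, 4 of 13 ion channel and 6 of 13 synaptic promoters. Catecholamine genes held it in 3 of 8, neurotrophic receptors in 3 of 5 and Schwann and neural crest genes in 0 of 6. Of those receptors, *Gfra1* was called higher in *EuMyc* and *Ngfr* was not called. The motif was not confined to neural lists, with 3 of 7 MHC class II and 6 of 14 Notch and Wnt mediator promoters. B-lineage factors held it in 0 of 13. Of genes not called, 16.6% held it. ATTTGCAT, the octamer bound by the factors that *Pou2af1* assists, occurred in 2.25%, 1.58% and 1.58% of genes and 1.74% of all windows. It was in 1 of 11 B cell receptor and surface promoters (*Blnk*), 1 of 9 precursor B cell promoters (*Vpreb3*) and 0 of 13 B-lineage factor promoters. An Ebf1 palindrome occurred in 1.66%, 1.68% and 1.29% of genes and 0.904% of all windows. CACGTG and CAGCTG are both E-boxes of the form CANNTG and share their outer letters. The shares are descriptions of letters, not of binding. A set of 5 windows is printed to show the motifs beside genes of the results, 5′ to 3′ on the strand of the gene, with the motif in capitals. They are *Blnk* (chr19:40994172-40994471, minus strand) and *Vpreb3* (chr10:75948050-75948349, plus strand) with the octamer, *Ldha* (chr7:46845554-46845853, plus strand) with 2 copies of CACGTG, and *Elavl3* (chr9:22051974-22052273, minus strand) and *Chga* (chr12:102554691-102554990, plus strand) with 1 and 2 copies of CAGCTG.
Blnk: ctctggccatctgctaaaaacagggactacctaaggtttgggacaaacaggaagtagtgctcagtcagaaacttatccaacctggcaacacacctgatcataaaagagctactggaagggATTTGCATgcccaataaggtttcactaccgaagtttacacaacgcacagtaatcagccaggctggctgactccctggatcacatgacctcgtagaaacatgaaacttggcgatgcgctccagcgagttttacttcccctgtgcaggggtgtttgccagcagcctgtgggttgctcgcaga
Vpreb3: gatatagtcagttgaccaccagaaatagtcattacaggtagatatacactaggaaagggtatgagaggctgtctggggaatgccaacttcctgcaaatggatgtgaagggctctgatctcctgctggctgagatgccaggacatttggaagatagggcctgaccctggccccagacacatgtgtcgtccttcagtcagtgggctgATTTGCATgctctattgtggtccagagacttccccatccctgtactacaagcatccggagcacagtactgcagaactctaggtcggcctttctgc
Ldha: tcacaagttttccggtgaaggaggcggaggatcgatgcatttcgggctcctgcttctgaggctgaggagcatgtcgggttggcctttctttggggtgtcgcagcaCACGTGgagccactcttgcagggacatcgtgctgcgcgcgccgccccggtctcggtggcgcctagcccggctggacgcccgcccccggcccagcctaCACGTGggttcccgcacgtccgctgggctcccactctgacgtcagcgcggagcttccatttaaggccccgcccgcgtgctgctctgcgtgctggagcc
Elavl3: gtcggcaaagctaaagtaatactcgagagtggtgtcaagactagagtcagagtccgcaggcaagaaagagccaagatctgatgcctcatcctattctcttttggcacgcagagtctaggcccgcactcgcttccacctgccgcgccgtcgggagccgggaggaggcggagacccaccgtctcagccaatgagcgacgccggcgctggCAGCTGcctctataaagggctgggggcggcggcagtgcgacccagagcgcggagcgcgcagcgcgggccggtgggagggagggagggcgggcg
Chga: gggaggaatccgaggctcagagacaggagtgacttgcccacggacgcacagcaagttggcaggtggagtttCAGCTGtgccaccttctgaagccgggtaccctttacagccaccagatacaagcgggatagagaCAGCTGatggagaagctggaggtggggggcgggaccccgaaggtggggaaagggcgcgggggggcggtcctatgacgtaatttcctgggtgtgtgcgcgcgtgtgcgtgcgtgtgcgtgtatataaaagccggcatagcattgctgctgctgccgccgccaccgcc
The octamer of *Vpreb3* began 45 bases before the annotated start site and that of *Blnk* 130 bases before it. *Vpreb3* and *Blnk* were at 193 to 382 and 131 to 227 CPM in the lymphomas and at most 0.866 and 3.95 CPM in the neuroblastomas.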

How the data were processed

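RNA-seq was performed on 15 mouse tumors, of which the 8 with intact *Casp2* are described. The values deposited by the authors are raw read counts per gene, made with STAR on mm10/GRCm38 after FastQC, with tool versions not given in the sources used here. The last count column was used, which held 49.7 to 50.1% of the reads counted on either strand, so overlapping and antisense genes cannot be told apart. The 4 summary entries per file that name no gene were left out. Genes with more than 1 CPM in at least 3 tumors were tested in 1 model over all 15 tumors with edgeR 4.0.16 (R 4.3.3, limma 3.58.1), TMM scaling and quasi-likelihood tests with Benjamini-Hochberg adjustment, and a prior count of 0.125. P-values measure the spread between tumors of different mice. Counting intervals and the floor of 3 reads cover counting error only. Alternatives included DESeq2 1.42.0. Simulated data for this comparison held 14536 genes, of which 200 were changed, a far smaller share than passed the FDR in the tumors. At an FDR under 0.05 with no fold limit, the method recovered 87 of 100 4-fold and 26 of 100 2-fold changes. Among the 120 genes that passed, 7 were false. Named genes were the 10 called genes per direction with the largest fold change (no overlap, mean of at least 50 CPM), the 5 most counted, extreme and most counted members of 35 gene lists, and *Myc*, *Mycn* and *Casp2*; other list members were open to naming, and some genes that the rule names are not reported here. The tumors and lists were chosen with earlier results of these data known.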

Additional observations from a re-analysis of the deposited data

Results flagged for a closer look

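Single tumors far from the other 3 of their group were found in 50 of 318 groups of values (15.7%), where chance gives about 1 in 20 (Dixon's criterion for 4 samples). The share cannot be read against chance, since some of the genes were named because 1 tumor stood apart, and values of different genes in 1 tumor are not independent. In EuMyc614 the value stood apart for *Phlda3* (9.27 CPM), *Gnb2l1* (4021 CPM), *Meg3* (16.1 CPM), *Jag2* (16.8 CPM), *Prph* (2.97 CPM), *Dbh* (4.37 CPM), *Snap25* (2.01 CPM), *Rps3* (4974 CPM) and *Slc6a2* (6.82 CPM). EuMyc743b stood apart for *Sdc1* (33.7 CPM), *Bcl2l2* (24.0 CPM), *Il7r* (173 CPM), *Igll1* (95.1 CPM), *Vpreb1* (60.1 CPM), *Erg* (33.8 CPM), *S100a8* (153 CPM), *S100a9* (221 CPM) and *Acta1* (8.98 CPM). Among values of EuMyc829, those apart were *Lin28b* (39.4 CPM) and *Trp53* (74.5 CPM). For EuMyc835 they were *Ly6d* (408 CPM), *Ccnd3* (302 CPM), *Bcl2l1* (38.2 CPM) and *Spib* (678 CPM). The most values apart, 16, belonged to MYCN175, and they were *Ddc* (1593 CPM), *Myh1* (37.4 CPM), *Dlk1* (792 CPM), *Isl1* (1015 CPM), *Slc18a3* (38.1 CPM), *Gap43* (1868 CPM), *Erg* (2.26 CPM), *Gata3* (215 CPM), *Zmat3* (159 CPM), *Hmx1* (105 CPM), *Ldhb* (88.9 CPM), *Bax* (93.0 CPM), *Ntrk3* (62.9 CPM), *Phox2a* (422 CPM), *Acta1* (86.2 CPM) and *Ppan* (99.4 CPM). MYCN332 was apart for *Sox10* (22.7 CPM) and *Chgb* (262 CPM). In MYCN391 the genes apart were *Ptprc* (60.0 CPM), *Itgb2* (57.1 CPM), *Ikzf1* (7.60 CPM), *Ikzf3* (1.61 CPM), *Cd79b* (4.69 CPM), *Cd72* (69.97 CPM), *Laptm5* (102 CPM) and *Spib* (1.11 CPM). Most of the genes apart in MYCN391 are expressed by blood cells, and many of those in MYCN175 are neuronal. The part of other cell types in these values was not tested. The tumor type effect on *Amy1* differed between *Casp2* genotypes by -9.25 on the log2 scale (*Casp2-/-* minus wild type, interaction FDR 0.0460). *Amy1* is one of the salivary gland genes, and the part of that signal in the interaction was not tested.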

How the results depend on the processing

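The number of genes called was 6858, and 7061 with a likelihood ratio test, 6886 with DESeq2, 6818 with RLE size factors, 7433 with every gene of at least 1 read, 6595 with the 8 tumors alone, 6886 with reads of either strand, 6532 with sex as a covariate, 8976 with no fold threshold and 6491 to 6778 with 1 tumor left out. Leaving out EuMyc743b and MYCN175 together, chosen after seeing the data, gave 6598. Of 154 named genes that were called, 139 kept call and direction in each of the 16 settings that tested them. Some genes were not tested in every setting, as with the 8 tumors alone or DESeq2, and a setting without a value counted as no loss. Named genes not called in the main fit but called in some settings were *Acta1*, *Bcl2*, *H19*, *Lin28b*, *Max*, *Mki67*, *Prph*, *Rag1*, *Trp53* and *Ubtf*. The median log2FC of all genes moved from -0.04 to -0.09 with RLE size factors or DESeq2 and to -0.10 with every gene of at least 1 read. The share of reads on the most counted genes differed by 1.94 percentage points for 100 genes (1.35 to 2.24 with 1 tumor left out) but by 0.230 points for 10 genes (exact permutation p = 0.543), and the cause was not tested. No paired analysis was possible because the tumor labels share no replicate numbers between groups. With 4 tumors a group, 2-fold changes were often missed in the simulation, in which 200 of 14536 genes were changed. In the tumors 60.3% of tested genes passed the FDR at any fold. The simulated shares of recovered and false results therefore cannot be read as those of the tumors. Tumor type, strain and tissue site cannot be told apart.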
